A study of Drosophila melanogaster with 4 samples.

Results

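The widest regions called as enriched for histone H4 in the late embryo of Drosophila melanogaster are described here. They are the H4-enriched regions of 10 kb or more in the list that combines both replicates, and most were in pieces in at least 1 replicate list. They were chosen by width alone, as rows named enriched whose last base minus first base plus 1 came to at least 10000 bp, on any sequence. The rule found 363 regions among 22525 enriched regions, or 1.61% by number. Because the width of a called region chose them, their widths and scores are given as a description, with no test.

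Chromatin came from wild-type embryos of the strain Oregon-R (Oregon-R-modENCODE) between 14 and 16 h of development, crosslinked with formaldehyde. The assay was ChIP-seq (chromatin immunoprecipitation and sequencing), in which DNA bound to a protein is pulled down with an antibody and sequenced. The study had 2 ChIP libraries made with an antibody to H4 and 2 libraries of input DNA, and each input served the ChIP library of the same number as its control. Whole embryos were used, so all tissues and both sexes may be mixed, and no label states whether the replicates were separate collections. The spread between replicates may therefore be technical.

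Histone H4 is 1 of the core histones: with H3 it forms the tetramer at the heart of every nucleosome, the unit around which DNA is wrapped. An antibody to H4 that recognises the core protein therefore reads where nucleosomes were recovered, whatever marks they carry. Regulatory DNA in use is often low in nucleosomes, and regularly packed nucleosomes are found along gene bodies and in silent chromatin. Heterochromatin is the compact, repeat-rich chromatin around centromeres, on chromosome 4 and on the Y.

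The files were lists of called regions with a score that the authors gave each region. They held no counts, so the sequencing depth is unknown and no counting interval can be given. The combined list covered 59.99 Mb, the list of replicate 1 had 15405 regions over 40.6 Mb and that of replicate 2 had 12952 regions over 32.1 Mb. Positions are those of FlyBase r5. No gene annotation or genome of that release was used, so the regions are named by position and neither genes nor sequence are given.

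The 363 broad regions held 4.99 Mb, which was 8.31% of all enriched bases of the combined list and 3.57% of the 13 sequences with regions. Most lay close to the minimum: 274 were under 15 kb, 59 were from 15 to under 20 kb, 25 from 20 to under 30 kb and 5 were 30 kb or more. The median width was 12.2 kb, with quartiles of 10.98 and 14.8 kb. The narrowest members were 10007 bp on 2R, 10018 bp on 3L, 10021 bp on 3R, 10024 bp on 2R and 10033 bp on 3L. The widest regions left out were 9993 and 9988 bp, both on 3L, then 9984 bp on 2L, 9984 bp on 3L and 9982 bp on 3R. Widths thus ran on without a break across the minimum, and the members are the upper end of a continuous range.

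The large chromosome arms held 360 of the 363 broad regions, and 2R held the most. There were 108 on 2R, 92 on 3R, 64 on 3L, 57 on 2L and 39 on X. Per Mb of sequence this was 5.11 on 2R, 3.30 on 3R, 2.61 on 3L, 2.48 on 2L and 1.74 on X. Arm 2R thus held 29.8% of the broad regions on 15.1% of the sequence length. Its regions were also more often broad: 2.73% of the enriched regions of 2R reached 10 kb, against 1.65% on 3R, 1.53% on 3L, 1.48% on 2L and 1.12% on X. As a share of enriched bases, broad regions made up 12.2% on 2R, 8.34% on 3L, 8.25% on 2L, 7.75% on 3R and 6.54% on X. By this share 3R came after 3L and 2L, while by the summed length of broad regions, from 1478 kb on 2R and 1179 kb on 3R to 557 kb on X, the order was that by number. Cover by enriched regions of any width had the order by number too. It was 57.3% of the sequence on 2R, 54.5% on 3R, 45.1% on 3L, 42.9% on 2L and 38.0% on X.

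The rule was also applied to each replicate list, which found 147 regions of 10 kb or more in replicate 1 and 75 in replicate 2. In both lists 2R held the most per Mb, with 1.89 in replicate 1 and 0.898 in replicate 2, and X the fewest of the large arms, with 0.535 and 0.312. The arms between them changed places: 3L was next in replicate 1 with 1.34 per Mb, and 2L was next in replicate 2 with 0.782 per Mb. In replicate 2 the lead of 2R was small, with 19 regions against 18 on the longer 2L. With 2 replicates and regions as the only units, the differences between arms were not tested.

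**Figure D1:**
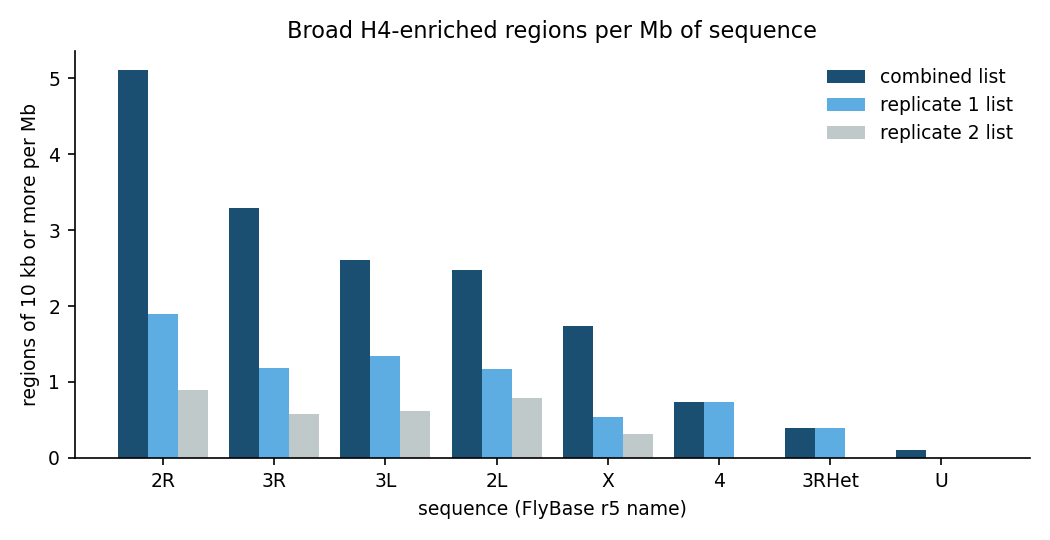
Bars give regions of 10 kb or more per Mb of each sequence (vertical axis) in the combined list and in the lists of replicates 1 and 2, for the 8 sequences that hold a broad region in the combined list. 2R stands highest in all 3 lists, with 5.11 per Mb in the combined list, and U lowest with 0.0995 per Mb.

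Sequences rich in heterochromatin held 3 broad regions in all. Single ones lay on chromosome 4, on the pericentric scaffold 3RHet and on U, which gathers sequence of unknown place. The scaffolds 2LHet, 2RHet, 3LHet, XHet and YHet had none, but they held few enriched regions of any width: 214 on 2RHet, 202 on 3LHet, 26 on 2LHet, 17 on XHet and 9 on YHet. On chromosome 4 the 1 broad region was 1.49% of 67 enriched regions, close to the 1.61% of the whole list, and it held 8.49% of the enriched bases there. On 3RHet it was 0.50% of 200 regions and on U 0.13% of 759. The region on chromosome 4 spanned bases 12933 to 24266 (11.3 kb, score 1.07). It stood at the edge of a long stretch with no enriched region, since its next neighbour lay 118583 bp away on one side and 8097 bp on the other. That on 3RHet spanned 1640110 to 1654642 (14.5 kb, score 0.993), with 97.3% of its bases in the list of replicate 1 and 88.4% in that of replicate 2. That on U spanned 3144082 to 3155659 (11.6 kb, score 1.14) and was the member least covered by the replicate lists, with 54.8% in replicate 1 and 26.0% in replicate 2.

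Along the arms the broad regions gathered in the fifth of the arm nearest the tip, though not always at its very end. Each arm was cut into 5 equal parts from its tip (the telomere, at base 1 of 2L, 3L and X and at the last base of 2R and 3R) to its centromere side. The part at the tip held 142 of the 360 broad regions (39.4%), while it held 20.9% of all enriched regions of the same arms. From the tip inward, the share of enriched regions that were broad was 3.22%, 1.88%, 1.09%, 1.18% and 1.04%. The share at the tip was larger in each wider class: it was 17.1% for regions under 2 kb, 23.5% for those from 2 to under 5 kb, 29.9% from 5 to under 10 kb and 39.4% at 10 kb or more. Like the counts per arm, this was described and not tested. In the replicate lists the part at the tip held 63 of 145 broad regions (43.4%) in replicate 1 and 30 of 75 (40.0%) in replicate 2, while it held 23.6% and 24.5% of all regions of those lists.

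The arms differed in how steep this was. On X, 26 of 39 broad regions (66.7%) lay in the part at the tip, and each of the other 4 parts held 3 or 4. Of these 26, 12 lay within 311 kb, between bases 1212901 and 1523765. The outermost Mb of X held 2 broad regions and the next Mb 17, while on 2L the outermost Mb held 9, the most on that arm. On 2L the 2 parts nearest the tip held 26 and 18 of 57, and the other 3 held 5, 4 and 4. On 3L the part at the tip held 27 of 64, and the part at the centromere side, with 10, held more than the part before it, with 4. Arm 2R had 38 of 108 at the tip and 16 to 19 in each other part. Arm 3R did not have its highest count at the tip, with 25 of 92 there and 28 in the next part. The gathering in the part at the tip was therefore seen in 4 of the 5 arms by the highest count, and in 5 of 5 by a share above that of all enriched regions.

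**Figure D2:**
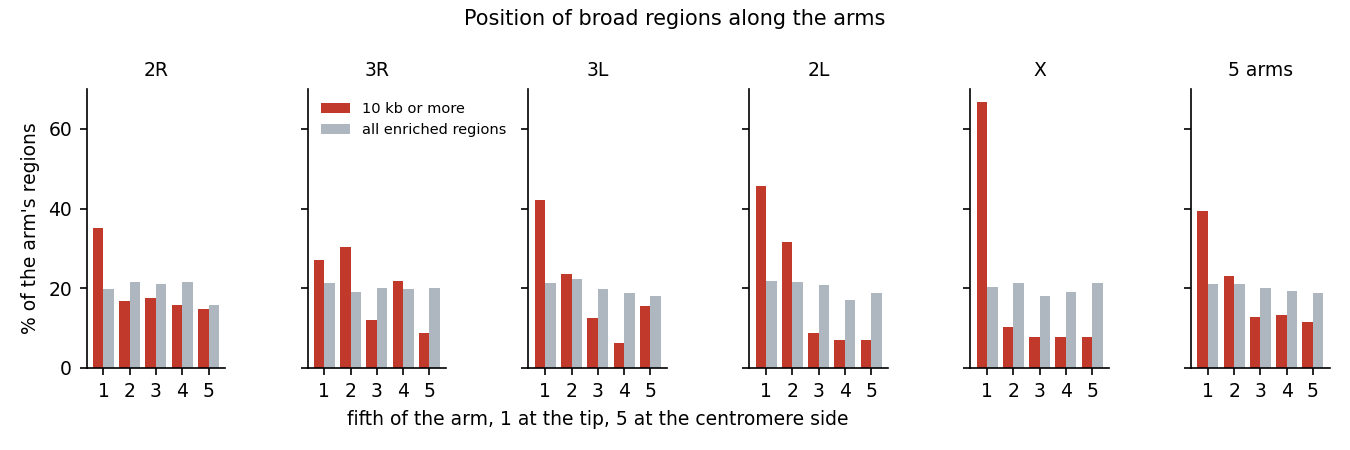
Each panel splits an arm into 5 equal parts, 1 at the tip and 5 at the centromere side, with the last panel for the 5 arms together. Red bars give the percentage of the arm's broad regions in each part and grey bars that of all its enriched regions. At the tip the red bar is above the grey bar in every panel, from 27.2% against 21.4% on 3R to 66.7% against 20.2% on X.

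Over windows of 1 Mb on the 6 arms, 4 included, broad regions were unevenly spread. Of the 120 windows, 26 held none and the median window held 2. There were 6 windows with 10 or more, and these held 76 broad regions, or 20.9% of all. The fullest was X from 1000001 to 2000000, with 17 broad regions among 166 enriched regions. It was followed by 2R from 20000001 to 21000000 with 14, 3L from 1000001 to 2000000 with 13, 2R from 19000001 to 20000000 with 12, and on 3R 20000001 to 21000000 and 25000001 to 26000000 with 10 each. In these 6 windows 65.7 to 80.01% of the bases were in enriched regions of any width, while in the 26 windows without a broad region the range was 19.1 to 57.1%. The windows were picked by their count of broad regions, which add to these shares. Enriched bases outside broad regions were therefore also given as a share of the full window length. They made up 47.8 to 61.4% of the 6 windows and 19.1 to 57.1% of the 26. Broad regions still counted in the window length, which lowers the values of the 6 windows, so the overlap of these ranges does not compare the remaining sequence. The enriched share of the remaining sequence alone was not computed.

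Broad regions stood close to one another. Of the 363, 186 (51.2%) had another broad region within 50 kb, edge to edge, on the same sequence. Among all 22525 enriched regions 23.2% had a broad region other than themselves within 50 kb. This share was larger in each wider class, with 18.3% under 2 kb, 25.5% from 2 to under 5 kb and 38.4% from 5 to under 10 kb. Between consecutive broad regions the median distance was 108 kb, with quartiles of 31.3 and 331 kb, and 40 of the 355 distances were at most 10 kb. At the other end 25 distances were over 1 Mb, the longest 4341 kb. Linking at 50 kb gave 177 broad regions that stood alone and 68 runs of 2 or more: 39 runs of 2, 22 of 3, 2 of 4, 3 of 5, 1 of 7 and 1 of 12. Members of runs had a median width of 12.9 kb and a median score of 0.71, and those that stood alone 11.8 kb and 0.70.

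The longest run was on X, where 12 broad regions lay between 1212901 and 1523765, a span of 311 kb. It held 30.8% of the broad regions of the whole X chromosome. Without it X would have 27 broad regions, or 1.20 per Mb. The 12 members took up 62.3% of the span and another 25 enriched regions brought this to 87.1%. In the replicate lists 73.3% of the span was enriched in replicate 1 and 55.6% in replicate 2. Members of the run were 10.5 to 30.5 kb wide and had scores from 0.65 to 0.82. Their bases were 77.5 to 98.8% in the list of replicate 1 and 41.4 to 86.5% in that of replicate 2. In places they all but touched: the members from 1348868 to 1360295 and from 1360635 to 1372619 were 339 bp apart, and those from 1475211 to 1503321 and from 1503750 to 1523765 were 428 bp apart.

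The next run held 7 broad regions on 2R between 20603214 and 20785226 (182 kb), near the tip of that arm. It was the most filled of the 3 longest runs, with 92.8% of the span enriched in the combined list, 85.0% in replicate 1 and 70.3% in replicate 2. Its members had a narrow range of scores, from 0.63 to 0.73. The third was also on 2R, with 5 broad regions between 19691828 and 19881477 (190 kb), of which 82.9%, 72.4% and 67.4% were enriched in the combined list and in replicates 1 and 2. Replicate 2 lay 14.7 percentage points below replicate 1 in the run of 7 and 4.9 in the third. In the run on X this was 17.7 percentage points, not far above that of the run of 7.

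The surroundings of broad regions were rich in H4-enriched sequence as well. Each region itself was left out of its flanks, while other broad regions lying there were counted. Within 10 kb of the edges of broad regions, 64.7% of the bases were enriched in the combined list, against 46.0% around enriched regions under 10 kb. In replicate 1 this was 50.7% around broad regions and 30.3% around the others, and in replicate 2 42.8% and 23.3%. The difference reached far out: at 50 kb it was 63.0% within the flanks of broad regions against 47.9% for the others, and in the single bin from 99 to 100 kb 61.3% against 48.0%. It was seen within each large arm. Within 50 kb, broad and other regions had 68.2% and 58.7% on 2R, 63.6% and 55.0% on 3R, 59.7% and 47.8% on 3L, 57.6% and 45.2% on 2L, and 63.6% and 40.6% on X. The largest of these differences was on X. Flanks of neighbouring regions overlap, so these shares rest on fewer independent stretches than regions.

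**Figure D3:**
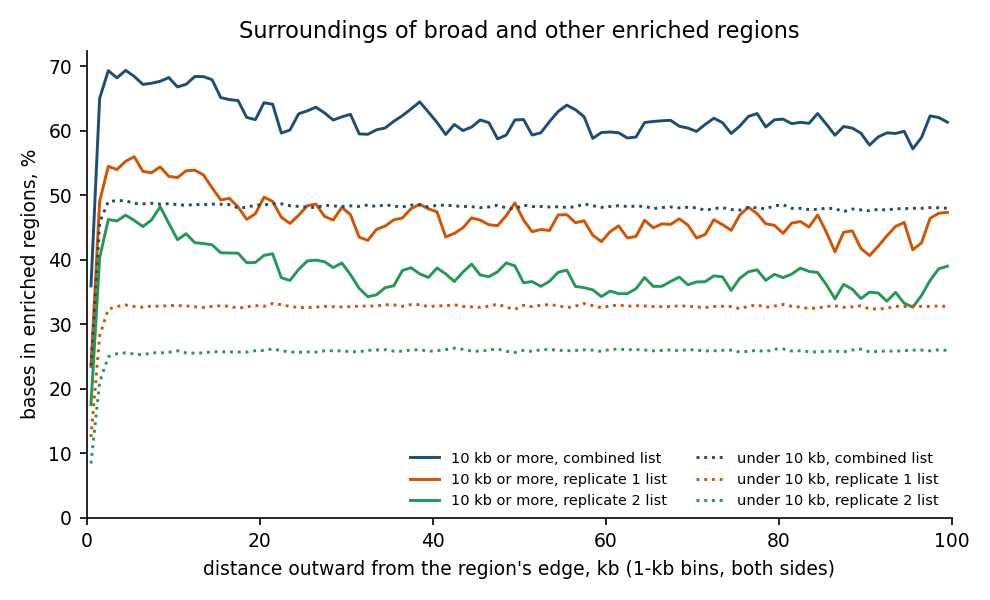
Lines give the percentage of bases in enriched regions (vertical axis) in bins of 1 kb outward from region edges, both sides pooled, around broad regions (solid) and enriched regions under 10 kb (dotted), in the combined list and the replicate lists. In each list the solid line stays above the dotted line out to 100 kb. In the last bin the combined list has 61.3% around broad regions and 48.0% around the others.

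The gap from a broad region to its nearest enriched neighbour had a median of 339 bp, against 667 bp for enriched regions under 10 kb. It was smaller in each wider class, with 798 bp under 2 kb, 594 bp from 2 to under 5 kb and 398 bp from 5 to under 10 kb, so the broad regions were close to the class next to them. Taking both sides, the median gap was 753 bp for broad regions and 1498 bp for the others. An enriched neighbour under 100 bp away was found for 83 broad regions (22.9%), for 18.5% of regions from 5 to under 10 kb and for 13.1% of all enriched regions. The region next in the list was itself broad for 43 of the 363 (11.8%), for 7.69% of regions from 5 to under 10 kb and for 3.15% of all enriched regions. The median width of a neighbour was 2873 bp beside broad regions and 1923 bp beside the others. There were 23 pairs of broad regions with nothing called between them, 9 to 6692 bp apart. Of these pairs 2 were under 100 bp apart.

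By the authors' score, broad regions lay high but not at the top. The scale and log base of the score are not stated, so it is used only to place regions within a list. Broad regions had a median score of 0.71 (quartiles 0.61 and 0.81), against 0.40 (0.32 and 0.52) for regions under 10 kb. The median broad region stood at percentile 90.1 of the combined list. Above the median score of the list were 99.4% of the broad regions and 50.0% of all regions. Scores were higher in each wider class, with medians of 0.34 under 2 kb, 0.48 from 2 to under 5 kb, 0.63 from 5 to under 10 kb and 0.71 at 10 kb or more. Among the broad regions alone width and score were weakly related (Spearman rho 0.23 across the 363 regions, against 0.55 across all 22525). Regions are not independent replicates, and score and width come from the same calls.

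No broad region had one of the highest scores. The highest score of a broad region was 1.24, and 304 regions scored above it, of which 232 were on U. Those 304 had a median width of 1.48 kb and none was wider than 7.82 kb. Between arms the medians of broad regions were close, at 0.73 on 2L, 0.73 on 3L, 0.72 on X, 0.70 on 2R and 0.68 on 3R, while the remaining regions of these arms had 0.38, 0.38, 0.45, 0.40 and 0.38. Arm 2R, with the most broad regions, thus did not have the highest scoring ones. The single broad regions on chromosome 4, 3RHet and U scored 1.07, 0.99 and 1.14, above the median of broad regions on every large arm. On U, however, all 759 regions had a median score of 0.96, also above those medians, while all regions had medians of 0.51 on 3RHet and 0.39 on chromosome 4.

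**Figure D4:**
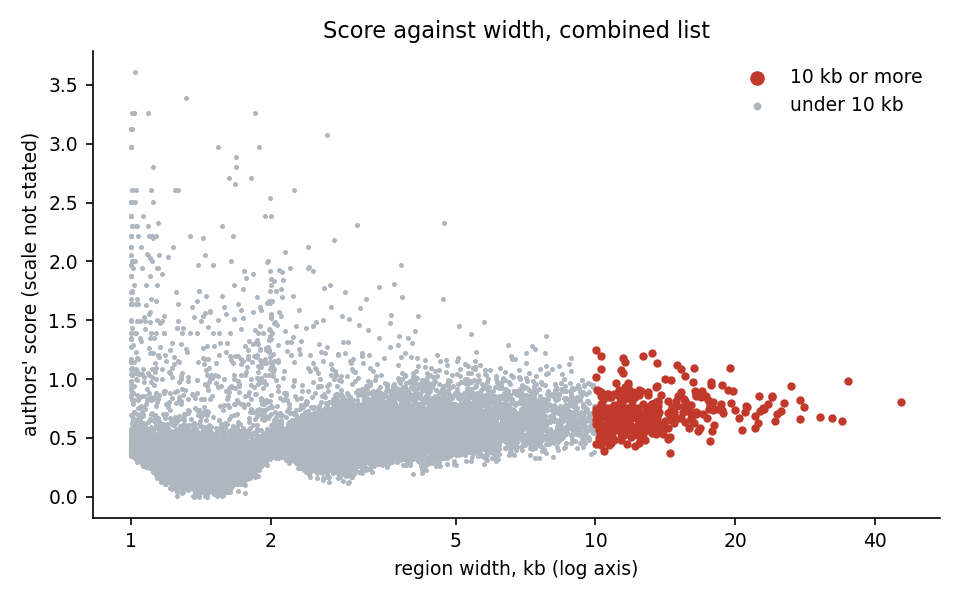
Each point is an enriched region of the combined list, with its width in kb on a log axis and the authors' score on the vertical axis; the 363 regions of 10 kb or more are red and narrower regions grey. Scores of broad regions run from 0.37 to 1.24, and the scores above 1.24 belong to narrower regions.

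The 5 broad regions with the highest scores were compact and unbroken. They lay on 3L from 8465640 to 8475672 (score 1.24), on 3R from 20061032 to 20074273 (1.22), on 2L from 5316492 to 5326783 (1.20) and from 6973128 to 6985790 (1.20), and on 3L from 14000060 to 14011497 (1.18). They were 10.0 to 13.2 kb wide. Each was a single piece in both replicate lists, with 97.3 to 99.5% of its bases in replicate 1 and 84.9 to 99.7% in replicate 2. The 5 with the lowest scores were split. They lay on 2L from 1035417 to 1049910 (0.37), on 2R from 15935582 to 15946000 (0.39), on 3R from 22670460 to 22682629 (0.43), and on 2R from 12837722 to 12848011 (0.44) and from 3535463 to 3546165 (0.44). These consisted of 2 to 5 pieces in each replicate list, with 53.5 to 83.7% of their bases in replicate 1 and 27.7 to 79.7% in replicate 2.

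The replicate lists covered the broad regions well but in pieces. Both were used by the authors for the combined list, so their cover of it is not an independent check. Replicate 1 held 91.1% of the bases of broad regions and replicate 2 82.6%, against 86.1% and 75.3% of the bases of regions from 5 to under 10 kb and 36.2% and 20.6% of those under 2 kb. Both lists held 78.9% of the broad bases, replicate 1 alone 12.2%, replicate 2 alone 3.62% and neither list 5.25%. Per region the median share was 94.0% in replicate 1 (quartiles 86.3 and 98.4%, lowest 49.1%) and 85.9% in replicate 2 (quartiles 75.8 and 94.2%, lowest 26.0%). Of the 363 broad regions, 346 (95.3%) had at least 50% of their bases in each list, as did 84.7% of regions from 5 to under 10 kb and 38.3% of all enriched regions. At 90% of the bases in each list there were 113 (31.1%), against 9.35% of all enriched regions. Replicate 1 held the larger share in 287 regions and replicate 2 in 76.

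Cover by the replicates also varied between arms. In replicate 1 it ran from 89.7% of the broad bases on 2R to 93.5% on 3L. In replicate 2 it was 87.8% on 2L, 83.5% on 3R, 83.3% on 3L and 82.2% on 2R, and lower on X, with 73.8%. X also had the most pieces per broad region of the large arms in both lists, with means of 2.31 in replicate 1 and 2.90 in replicate 2, while 2L had the fewest, with 1.89 and 2.21.

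**Figure D5:**
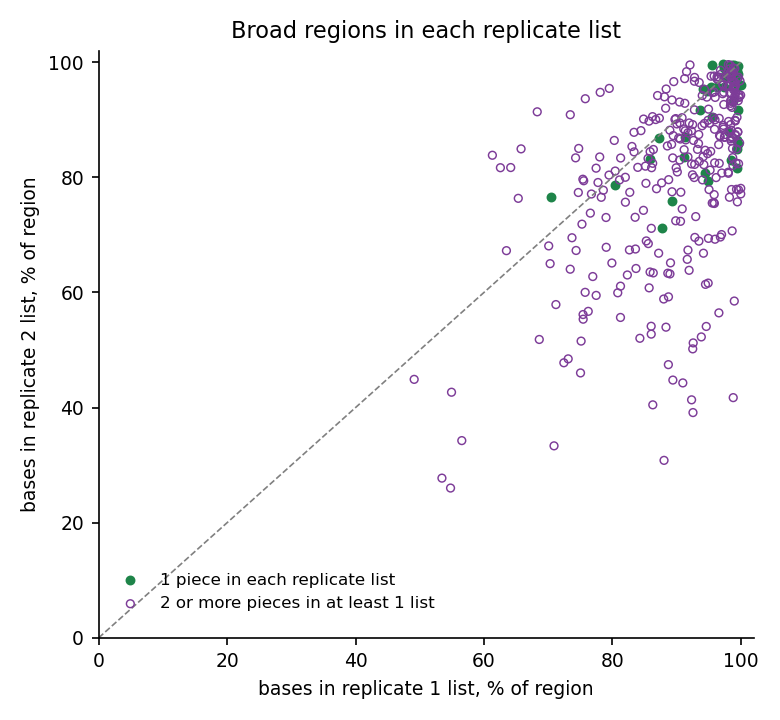
Each point is a broad region, with the percentage of its bases in the list of replicate 1 (horizontal) and of replicate 2 (vertical); filled points are single pieces in both lists, open points have 2 or more pieces in at least 1 list, and the dashed line marks equal shares. Most points lie below the line, where replicate 1 holds the larger share (287 of 363), and the filled points gather at the upper right.

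By number of pieces, 49 broad regions overlapped a single region in each replicate list. A single piece need not cover the whole region. On 2L from 3608169 to 3618816 it held 70.4% of the bases in replicate 1 and 76.6% in replicate 2, while from 4479146 to 4514176 it held 99.6% and 99.3%. Replicate 1 had 112 broad regions in 1 piece, 135 in 2, 86 in 3 and 30 in 4 or more, with a mean of 2.12. Replicate 2 had 67 in 1 piece, 120 in 2, 115 in 3 and 61 in 4 or more, with a mean of 2.56. Replicate 2 had more pieces in 164 regions, replicate 1 in 56, and the number was the same in 143. The 49 in 1 piece had a median score of 0.88 and a median width of 11.8 kb, and the other 314 had 0.68 and 12.3 kb. The widest piece took up a median of 64.8% of the region in replicate 1 and 48.5% in replicate 2.

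The breaks between pieces were short. Replicate 1 had 407 breaks inside broad regions with a median of 259 bp, of which 334 (82.1%) were under 1000 bp, and the longest was 3712 bp. Replicate 2 had 566 breaks with a median of 351 bp, of which 405 (71.6%) were under 1000 bp, and the longest was 6802 bp. Breaks often fell in the same place: 213 of those of replicate 1 (52.3%) met a break of replicate 2, and 206 of those of replicate 2 (36.4%) met a break of replicate 1. How many would meet by position alone was not computed. The unmarked bases lay about equally in breaks, with 48.6% in replicate 1 and 48.9% in replicate 2, and at the ends, with 51.4% and 51.1%. In the outer 500 bp at each end, 65.6% of the bases were marked in replicate 1 and 50.2% in replicate 2, against 92.4% and 84.9% in the middle 1000 bp.

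Few regions were this broad in a single library. A replicate region of 10 kb or more was present in 142 of the 363 in replicate 1 and in 75 in replicate 2. It was present in both lists for 62 regions, in replicate 1 alone for 80, in replicate 2 alone for 13 and in neither for 208. The 62 had a median score of 0.85 and a median width of 15.0 kb, and the 208 had 0.64 and 11.6 kb. In the other direction, 145 of the 147 broad regions of replicate 1 and all 75 of replicate 2 touched a broad region of the combined list. The exceptions, named after their values were seen, were both on 3L. The first, from 1534718 to 1544744 (10.0 kb), matched a combined region of 9.99 kb. The other, from 17836836 to 17848283 (11.4 kb), was split in the combined list into 2 regions, the wider of 9.74 kb.

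Among the 10 widest regions, length and unity went separate ways. The widest, on 3L from 22295426 to 22340979 (45.6 kb, score 0.81), was almost wholly marked in both replicates (98.4% in replicate 1 and 93.3% in replicate 2) but consisted of 3 pieces in replicate 1 and 7 in replicate 2. Its next neighbour on one side was 118 bp away and itself broad, with 13971 bp. A further member of the 10, on 3L from 22367193 to 22399466 (32.3 kb, score 0.67), had 4 and 6 pieces, with 95.1% of its bases in replicate 1 and 77.9% in replicate 2. Both lay on the centromere side of the arm, in the part with 10 of the 64 broad regions of 3L.

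The region on 2L from 4479146 to 4514176 (35.0 kb, score 0.98) was the widest that was 1 piece in both lists, and a broad region of 16188 bp began 648 bp beyond it. The region on 3R from 20461554 to 20487892 (26.3 kb, score 0.94) came close, with 1 piece in replicate 1 and 2 in replicate 2, the wider of which covered 84.7% of it. In contrast, the region on 2R from 18139205 to 18173207 (34.0 kb, score 0.65) had 5 pieces in replicate 1 and 11 in replicate 2, the most of any broad region. About 90% of its bases were marked in each list all the same, 89.7% in replicate 1 and 90.1% in replicate 2, and its widest piece in replicate 2 made up 14.8% of it. The pair on X from 1379980 to 1410485 (30.5 kb) and from 1475211 to 1503321 (28.1 kb) belonged to the run of 12, and had 4 and 5 pieces in replicate 1 and 6 and 5 in replicate 2. They were the least covered of the 10 widest in replicate 2, with 52.8% and 60.8% of their bases, against 86.1% and 85.7% in replicate 1.

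The other 3 of the 10 were as follows. The region on 2L from 1158411 to 1186010 (27.6 kb, score 0.82) was marked less in replicate 1, with 86.8%, than in replicate 2, with 90.05%. The region on 2L from 6181429 to 6208936 (27.5 kb, score 0.66) was marked to 93.5% in replicate 1 and 68.9% in replicate 2. The region on 2R from 6580268 to 6605748 (25.5 kb, score 0.79) was marked to 94.8% and 84.1%. Outside the 10 widest, bases 7312911 to 7337549 of 3L (24.6 kb) formed a region of 3 pieces in replicate 1 and 6 in replicate 2, and 2 bp separated it from its neighbour. It was 1 of 6 broad regions whose higher count was 6, and was taken over narrower ones by its width. Among these, 2R from 3227549 to 3248233 had 6 pieces in replicate 1 and 5 in replicate 2.

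The broad regions least covered by the replicate lists were short members. After the region on U, the lowest shares in 1 list were those on 2R from 15935582 to 15946000 (53.5% in replicate 1 and 27.7% in replicate 2), on X from 15359336 to 15369671 (88.1% and 30.8%), on 3L from 13641456 to 13651678 (70.9% and 33.4%) and on 2R from 11462335 to 11473161 (56.6% and 34.3%). In each of the 5 the lower share was that of replicate 2. The 5 were 10.2 to 11.6 kb wide. In 17 of the 363 broad regions the share was under 50% in replicate 2, and in 1 of them it was under 50% in replicate 1 too, the region on 3R from 25966408 to 25976428, with 49.1% and 44.9%.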

How the data were processed

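The deposited files were 3 lists of regions on FlyBase r5, per the file headers: 1 for each H4 ChIP library and 1 for the replicate set. Bowtie 0.12.7 is listed, per the submitters' processing notes, with no role. Which caller, threshold and window made the regions, and how replicates were combined, is not given in the sources used here. The deposited score is the authors' own value per region, on a scale that is not stated. Start and end were taken as deposited, 1-based.

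From these lists were computed widths, gaps, covered bases, runs of broad regions linked at 50 kb, and, for each broad region, its share of bases and its pieces (regions that overlap it by at least 1 bp) in each replicate list. Regions under 10 kb, and all enriched regions, were set beside them. No test was made: width and score come from the same calls, and both replicates went into the combined list. The interval functions were tested on simulated lists. The 14 regions named as depleted were left out, and no value of the input libraries was used. Depth is unknown, so no counting error can be given. Covered shares used the 13 sequences with regions.

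The members, the lists and the rules were chosen with earlier results of these data known. Named are the 10 widest members, the widest of each sequence, the 5 with the highest and with the lowest score, the 5 just inside and just outside the width minimum, the 5 with most pieces in either list (the wider first on ties), the 5 least covered in either replicate list and the 3 longest runs. Positions of windows and the 2 replicate regions outside were chosen after their values were seen. A planned comparison with genes and base composition was not run, since no reference of this release was used. The alternatives were width minimums of 8 and 20 kb, merging of regions under 100 bp apart, the 6 arms alone, regions above the median score, each replicate list alone, links at 20 and 100 kb, and pieces of at least 500 bp. Python 3.11.15, NumPy 2.4.6, pandas 2.3.3, SciPy 1.17.1 and Matplotlib 3.10.9 were used.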

Additional observations from a re-analysis of the deposited data

How the results depend on the processing

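Across 59 values under the alternatives, 36 moved by no more than the spread between replicates, or by no more than 1.5 times for the number of broad regions, and 23 moved further. The spread was the standard deviation of 2 values, so these counts are only a rough guide. For pieces it was 0, so any change of the median counted as a move. For values also taken from single lists, the spread came from those lists, which were themselves among the alternatives. The number of broad regions, 363 in the main setting, was 673 with a minimum of 8 kb and 30 with 20 kb. With regions under 100 bp apart merged it was 481, which counts as unmoved only by the rule of 1.5 times. It ranged from 75 to 147 in single replicate lists. Their share of enriched bases (8.31%) was 12.9% with 8 kb, 1.27% with 20 kb, 11.5% with regions under 100 bp apart merged and 12.4% among regions above the median score. In single lists it was 2.98 to 4.72%. The median score (0.71) was 0.85 to 0.89 in single lists, and whether scores of the 3 lists share a scale is not stated. The median gap to the nearest neighbour (339 bp) was 410 bp with 20 kb, 466 bp after merging, 597 bp among regions above the median score, and 583 to 665 bp in single lists. The share with another broad region within 50 kb (51.2%) was 13.3% with 20 kb, 12.0 to 35.4% in single lists, and 32.2% with links at 20 kb. The number of broad regions was also lower with 20 kb, at 30, and in single lists, at 75 to 147. The median number of pieces (2 in each replicate) was 3 in replicate 1 and 4 in replicate 2 with 20 kb, and 3 in replicate 2 after merging. The cause of these moves was not tested. The share of broad bases in each replicate list moved by less than the spread between replicates under each alternative run. No paired analysis was possible because the result comes from no test and the input libraries have no values of their own here. Depth is unknown, so what it limits was not tested.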
